A study of Homo sapiens with 20 samples.

Results

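To describe how human pancreatic progenitors (PPs) with *ALKBH5* knockout (A5-KO) differed from WT PPs at steady state, the untreated PP libraries were compared, those collected at 0 h of the actinomycin D (Act D) series. The comparison held 4 of the 20 RNA-seq libraries of the series, 2 WT and 2 A5-KO, and the 13911 of 60623 listed genes that averaged 1 CPM or more over them, where CPM is a gene's reads scaled to a common library size. Both genotypes were derived from MEL1 human embryonic stem cells, which in this study carry GFP at the insulin locus, were maintained on CF1 feeder cells and went through the same stepwise differentiation with activin A, KGF, retinoic acid, EGF, the BMP receptor inhibitor LDN-193189 and the hedgehog inhibitor GDC-0449. A5-KO cells were made by CRISPR-Cpf1 editing with a pair of guides against the first exon of *ALKBH5* and were expanded from picked colonies, so the loss of *ALKBH5* and other differences between the lines cannot be told apart. The labels number the libraries of a group as replicates without saying whether they came from separate differentiations, and *p*-values measure only the spread between these libraries. PP libraries with Act D (6 per genotype) and 4 libraries of human islet-like organoids (hILOs) were used only to show the values of the same genes elsewhere.

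N6-methyladenosine (m6A) is a methyl mark on adenosines of mRNA that is written by the METTL3-METTL14 complex, removed by the demethylases ALKBH5 and FTO, and bound by YTH and IGF2BP proteins, through which it affects splicing, export, translation and decay. PPs are endoderm cells of the posterior foregut that carry PDX1 and NKX6.1 and can form endocrine, duct and acinar cells. The liver, stomach and duodenum arise from neighbouring endoderm, and PP cultures can contain cells that express genes of these organs.

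The 4 libraries held between 32273734 and 34835774 reads, recovered from the deposited CPM. The median absolute log2 difference between replicates was 0.10 in WT (9349 genes averaging 10 CPM or more) and 0.13 in A5-KO (9430 genes). The PP factors *PDX1*, *NKX6.1* and *SOX9* were high in every library, whereas *INS*, *GCG* and the acinar gene *PRSS1* had no read and the acinar factor *PTF1A* stayed at 0.46 CPM or less. Hepatocyte markers were present in all libraries, with a summed level of the 5 markers (*ALB*, *AFP*, *APOA1*, *FGB* and *TTR*) of 704 and 693 CPM in WT and 1572 and 1547 CPM in A5-KO. Summed CPM of the 4 intestinal markers (*CDX2*, *CDH17*, *LGALS4* and *FABP2*) was 432 and 400 in WT and 585 and 563 in A5-KO, and that of the 5 mesenchyme markers (*COL1A1*, *COL3A1*, *LUM*, *DCN* and *PDGFRA*) was 33.8 and 34.9 in WT and 81.7 and 88.1 in A5-KO. The summed levels of the longer lists for these lineages differed less. The 35 genes for secreted hepatocyte proteins summed to 3382 and 3692 CPM in WT and 3701 and 4199 CPM in A5-KO, the 33 intestinal genes to 1628 and 1597 CPM against 1922 and 1835 CPM, and the 30 mesenchyme genes to 4047 and 4139 CPM against 4451 and 4250 CPM. Summed CPM of the 3 stomach markers (*SOX2*, *CLDN18* and *TFF1*) was lower in A5-KO, with 50.8 and 59.2 in WT and 28.1 and 38.4 in A5-KO. The 19 stomach genes of the longer list had the opposite order, with 829 and 827 CPM against 1190 and 1183 CPM. *SOX17*, *SOX1* and the blood marker *PTPRC* had no read. In bulk RNA, fewer cells of a type and less RNA per cell cannot be told apart. The part that these shifts in other lineages' markers had in the results that follow was not tested.

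*ALKBH5* (ENSG00000091542, chr17:18183078-18209954, plus strand of GRCh38) was at 149 and 172 CPM in the WT libraries and at 19.1 and 18.8 CPM in the A5-KO libraries. Both A5-KO libraries lay far below both WT libraries, with a log2 fold change of -3.01 ± 0.10 (SE, limma adjusted *p* = 1.5e-06). *FTO*, the other m6A demethylase, was at 34.4 and 29.6 CPM in WT and 34.5 and 29.1 CPM in A5-KO. None of the 13 tested writer genes and none of the 16 tested reader genes passed the limits in limma. An unadjusted *p* below 0.05 was found for 1 writer and 3 readers, beside 2684 of all 13911 tested genes. edgeR and DESeq2 on the recovered reads called no writer and no reader either. *METTL3*, the catalytic writer subunit, was at 52.9 and 48.8 CPM in WT and 60.9 and 58.0 CPM in A5-KO (adjusted *p* = 0.24), and its partner *METTL14* was at 37.0 and 31.4 CPM against 36.6 and 37.1 CPM (adjusted *p* = 0.65). The reader *YTHDF2*, which recruits the deadenylase complex to marked mRNA, had overlapping genotypes, with 152 and 130 CPM in WT and 165 and 136 CPM in A5-KO. Of 31 tested genes of the mRNA decay machinery 0 were called by limma, edgeR or DESeq2, and 4 had an unadjusted *p* below 0.05. *FTO*, *METTL3* and *METTL14* were named for their roles after their values were seen.

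Across the 13911 genes, 157 fell in A5-KO (1.13% of those tested) and 218 rose (1.57%), so that 2.7% were called either way. Each count of called genes in a list or family below is to be read beside these shares. An unadjusted limma *p* below 0.05 was found for 2684 of the 13911 genes, 1153 lower and 1531 higher. Counts at that unadjusted limit in a list or family are to be read beside this number. A gene was called where limma's adjusted *p* was below 0.05 and the change on the log2(CPM + 1) scale exceeded 1.5-fold, and log2 fold changes are printed ± their standard error (SE) for the larger changes. The median change of all genes was 0.03. Most of the called genes were expressed at moderate or low levels. Among the 1817 genes averaging 100 CPM or more, 8 fell and 16 rose, among the 7583 between 10 and 100 CPM, 87 fell and 91 rose, and among the 4511 below 10 CPM, 62 fell and 111 rose. For all 375 called genes the libraries of one genotype lay on one side of those of the other. In all tested genes both A5-KO libraries lay above both WT libraries for 29.0% and below them for 20.8%, so that separation without a call is common with 2 libraries a group. An exact permutation test of 2 libraries against 2 cannot give a two-sided *p* below 0.33, and the calls rest on limma's estimate of the spread across all genes. When each library was left out in turn, 166 of the 375 genes kept their call in all 4 fits (70 lower and 96 higher), and for the named genes every call lost in this way is given beside the values.

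**Figure D1:**
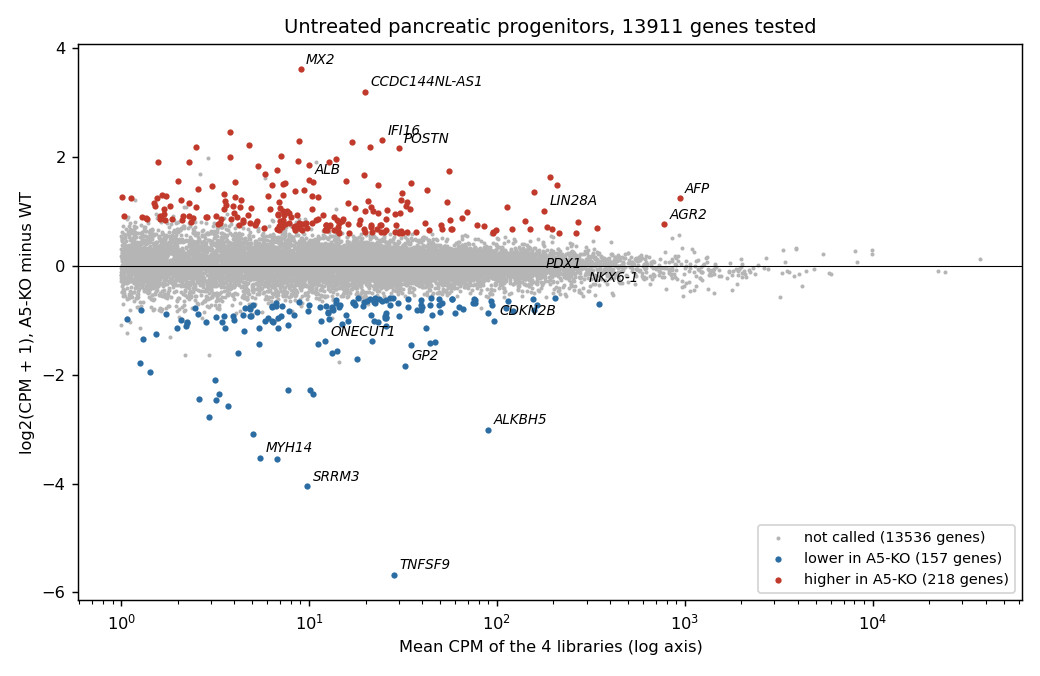
Change of each tested gene in untreated PPs (y axis, A5-KO minus WT on the log2(CPM + 1) scale) against its mean level over the 4 libraries (x axis, CPM, log axis), with genes that fell in blue, genes that rose in red and the others in grey. The cloud of all genes is centred near 0 (median 0.03), *TNFSF9* and *SRRM3* lie lowest at -5.68 and -4.05, *MX2* lies highest at 3.61, and *AFP* stands out among the highly expressed genes at 1.24.

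Of the 24 tested transcription factor genes of the PP list, 2 fell, 2 rose and 20 did not pass the limits, with a list median of -0.08. *PDX1*, required for pancreas formation, was at 200 and 156 CPM in WT and 168 and 153 CPM in A5-KO. The genotypes overlapped, and the log2 fold change, -0.14 ± 0.11 (SE), did not pass (limma adjusted *p* = 0.54). *NKX6.1* (symbol *NKX6-1*), which marks progenitors able to form beta cells, was at 367 and 289 CPM in WT and 253 and 241 CPM in A5-KO. Both A5-KO libraries were lower, but the log2 fold change of -0.40 ± 0.10 (SE) did not pass the adjusted *p* (0.067). *SOX9*, which maintains the progenitor pool, was at 322 and 237 CPM against 292 and 227 CPM and overlapped between genotypes. *MNX1*, a homeobox gene of the early pancreatic bud, was at 131 and 116 CPM in WT and 99.9 and 117 CPM in A5-KO and overlapped as well. *FOXA2*, a pioneer factor of endoderm, had overlapping genotypes too, with a log2 fold change of -0.08.

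*ONECUT1* (HNF6), which acts upstream of endocrine differentiation and is also a factor of hepatocytes and bile ducts, showed the largest decrease in this list. It was at 18.7 and 17.1 CPM in WT and 7.23 and 5.33 CPM in A5-KO, and its log2 fold change was -1.39 ± 0.17 (SE, limma adjusted *p* = 0.0019), with both A5-KO libraries below both WT libraries. *NKX6-2*, the close relative of *NKX6.1*, fell from 37.1 and 36.3 CPM to 18.8 and 27 CPM (log2 fold change -0.68, adjusted *p* = 0.044). Its adjusted *p* lost the limit without WT replicate 1 (0.10), without WT replicate 2 (0.12) and without A5-KO replicate 1 (0.098, log2 fold change -0.43). The factors that rose were *FOXA1*, a pioneer factor of endoderm, and *RFX6*, a regulator of gut endoderm and endocrine differentiation. *FOXA1* was at 21.0 and 13.9 CPM in WT and 49.4 and 40.1 CPM in A5-KO (log2 fold change 1.33 ± 0.18, adjusted *p* = 0.0035), and it shares 16 exon bases with *TTC6*. *RFX6* was at 4.88 and 3.47 CPM in WT and 15.4 and 9.90 CPM in A5-KO (log2 fold change 1.38 ± 0.22, adjusted *p* = 0.0092).

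Several hepatocyte genes rose. Of 21 tested genes for secreted hepatocyte proteins 8 rose, 0 fell and 13 did not pass, and the list median was 0.42 against 0.03 for all genes. edgeR called 6 of them higher and DESeq2 called 7. Both A5-KO libraries were above both WT libraries for 13 of the 21 and below them for 5, beside 29.0% and 20.8% of all tested genes. The log2 fold changes of these 5 lay between -0.55 and -0.18, and none of them was called. Of 19 tested hepatocyte enzymes and transporters 4 rose and 1 fell, with a median of 0.17. For the genes in which the increase was largest or that lie next to each other, the RefSeq windows from 250 bases before to 50 bases after the start of *ALB*, *AFP* and the 3 fibrinogen genes are given on the gene's strand (GRCh38.p14). Capitals mark CG dinucleotides, the sites of DNA methylation, which are dense in the promoters of many broadly expressed genes. The windows lie at chr4:73404037-73404336 (*ALB*), chr4:73435971-73436270 (*AFP*), chr4:154562730-154563029 (*FGB*), chr4:154590693-154590992 (*FGA*) and chr4:154612607-154612906 (*FGG*).
*ALB*: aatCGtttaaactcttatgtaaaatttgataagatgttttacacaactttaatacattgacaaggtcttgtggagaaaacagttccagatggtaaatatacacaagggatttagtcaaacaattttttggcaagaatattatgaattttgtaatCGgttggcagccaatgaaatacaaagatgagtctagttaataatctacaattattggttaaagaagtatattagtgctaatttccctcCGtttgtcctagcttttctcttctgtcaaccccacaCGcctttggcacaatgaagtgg
*AFP*: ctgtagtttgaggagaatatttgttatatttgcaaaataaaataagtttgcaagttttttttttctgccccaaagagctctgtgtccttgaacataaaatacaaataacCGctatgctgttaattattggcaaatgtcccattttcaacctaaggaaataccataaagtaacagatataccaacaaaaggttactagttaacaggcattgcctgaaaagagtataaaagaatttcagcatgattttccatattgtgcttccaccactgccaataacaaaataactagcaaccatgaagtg
*FGB*: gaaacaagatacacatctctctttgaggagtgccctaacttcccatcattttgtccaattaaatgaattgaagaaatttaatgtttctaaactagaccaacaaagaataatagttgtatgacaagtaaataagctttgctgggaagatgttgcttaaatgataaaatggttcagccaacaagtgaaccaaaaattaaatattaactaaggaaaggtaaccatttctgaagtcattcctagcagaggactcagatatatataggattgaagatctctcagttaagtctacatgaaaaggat
*FGA*: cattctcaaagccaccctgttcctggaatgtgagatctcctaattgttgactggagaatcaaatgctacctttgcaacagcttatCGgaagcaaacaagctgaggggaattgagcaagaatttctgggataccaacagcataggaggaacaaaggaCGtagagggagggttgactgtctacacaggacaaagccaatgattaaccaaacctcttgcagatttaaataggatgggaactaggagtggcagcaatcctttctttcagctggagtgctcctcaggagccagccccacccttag
*FGG*: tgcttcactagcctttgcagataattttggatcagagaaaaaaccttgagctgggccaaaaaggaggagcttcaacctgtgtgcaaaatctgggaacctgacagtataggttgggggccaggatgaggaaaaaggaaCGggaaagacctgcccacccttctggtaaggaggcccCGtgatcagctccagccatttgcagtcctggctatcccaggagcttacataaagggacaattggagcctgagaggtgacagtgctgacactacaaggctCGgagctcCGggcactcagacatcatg

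The windows held few CG dinucleotides, 4 for *ALB*, 1 for *AFP*, 0 for *FGB*, 2 for *FGA* and 4 for *FGG*, beside a median of 14 over all 35116 promoter windows of this length in the RefSeq set. Of the 12 genes of both hepatocyte lists that rose, 8 had a window, with a median of 2.5 CG dinucleotides. Of the 27 list genes that were tested and not called, 22 had a window, with a median of 6. These counts describe the sequences and were not tested.

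*TTR* (transthyretin, a carrier of thyroid hormone and retinol) rose most in this group. It was at 6.60 and 7.41 CPM in WT and 35.1 and 35.7 CPM in A5-KO, with no overlap, with a log2 fold change of 2.19 ± 0.13 (SE, limma adjusted *p* = 3.1e-05). *TTR* is also made by islet cells and was counted in the islet list too. *AFP*, the main serum protein of the fetal liver, was the most abundant gene of the group, with 563 and 551 CPM in WT and 1343 and 1294 CPM in A5-KO. Its replicates were close and its genotypes far apart (log2 fold change 1.24 ± 0.06, adjusted *p* = 1.3e-05). *ALB*, its neighbour on chromosome 4 and the albumin of adult serum, was at 4.51 and 4.49 CPM in WT and 16.6 and 14.4 CPM in A5-KO (log2 fold change 1.58 ± 0.15, adjusted *p* = 0.00049).

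The 3 fibrinogen chains, which form the clotting protein and lie next to each other on chromosome 4, rose together. *FGB* was at 4.56 and 3.07 CPM in WT and 16.9 and 15.3 CPM in A5-KO (log2 fold change 1.84 ± 0.18, limma adjusted *p* = 0.00063). *FGG* was at 2.18 and 1.08 CPM in WT and 6.68 and 6.30 CPM in A5-KO (log2 fold change 1.54, adjusted *p* = 0.0053). *FGA* was at 4.31 and 3.35 CPM against 12.2 and 7.97 CPM (log2 fold change 1.18, adjusted *p* = 0.016), and without A5-KO replicate 1 its adjusted *p* was 0.057. The remaining secreted proteins that rose were *APOB*, the scaffold of VLDL particles, and *ITIH2*, a hyaluronan-binding serum protein. *APOB* was at 75.4 and 74.9 CPM in WT and 124 and 107 CPM in A5-KO (log2 fold change 0.61, adjusted *p* = 0.0070), and it fell short of 1.5-fold in edgeR (log2 fold change 0.58), in DESeq2 (0.58) and without A5-KO replicate 1 (0.50). *ITIH2* was at 2.04 and 2.35 CPM against 4.48 and 4.51 CPM (log2 fold change 0.78, adjusted *p* = 0.040) and lost its call without each library in turn (adjusted *p* between 0.081 and 0.16). *APOA1*, the main protein of high density lipoproteins, was higher in both A5-KO libraries (124 and 127 CPM against 160 and 188 CPM, log2 fold change 0.46) but did not reach 1.5-fold. *FGA*, *FGG*, *APOB* and *ITIH2* were named after their values were seen.

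Among the hepatocyte enzymes, the glutathione transferases *GSTA2* and *GSTA1* and the urea cycle enzyme *OTC* rose. *GSTA2* was at 18.7 and 21.3 CPM in WT and 45.8 and 47.0 CPM in A5-KO (log2 fold change 1.18, limma adjusted *p* = 0.00049). *GSTA1* went from 31.3 and 29.3 CPM to 50.5 and 55.4 CPM (log2 fold change 0.78, adjusted *p* = 0.0029). These are close paralogs, and reads may have been split between them. *OTC* was at 16.4 and 15.4 CPM against 26.5 and 26.6 CPM (log2 fold change 0.71, adjusted *p* = 0.011), and its adjusted *p* was 0.076 without WT replicate 2. *PCK1*, the committed enzyme of gluconeogenesis, fell from 10.4 and 11.9 CPM to 6.64 and 6.59 CPM (log2 fold change -0.67, adjusted *p* = 0.041), a call that was lost without each library in turn (adjusted *p* between 0.072 and 0.28).

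**Figure D2:**
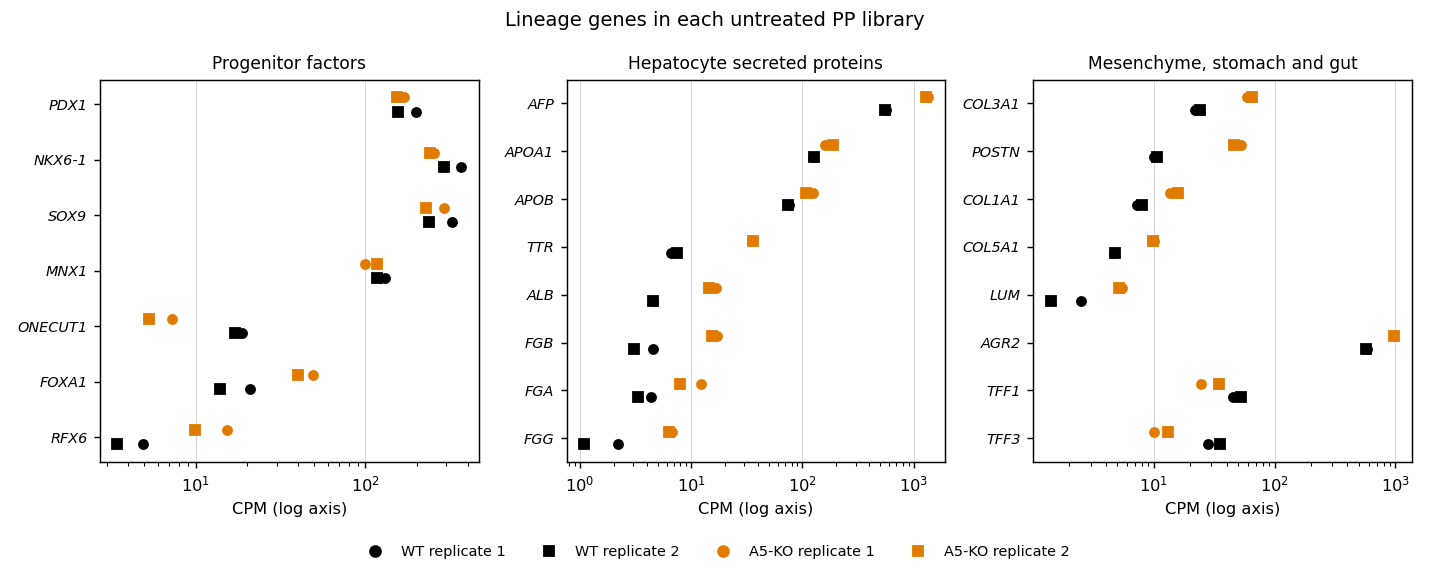
CPM of lineage genes in each untreated PP library (x axis, log scale), with WT in black, A5-KO in orange, circles for replicate 1 and squares for replicate 2. *PDX1*, *SOX9* and *MNX1* overlapped between genotypes, and *TFF1* and *TFF3* were lower while *COL3A1*, *POSTN* and *AGR2* were higher. The 8 hepatocyte genes drawn were all higher in both A5-KO libraries. They are a choice from 21 tested genes for secreted hepatocyte proteins, of which 5 were lower in both A5-KO libraries.

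Called genes of intestinal epithelium were split, while separated genes were more often higher. Of 24 genes tested, 3 rose, 2 fell and 19 did not pass, with a list median of 0.35. Both A5-KO libraries were above both WT libraries for 14 of the 24 and below them for 4, beside 29.0% and 20.8% of all tested genes. The genes that rose encode apical proteins of enterocytes. *GUCY2C*, the guanylin receptor, was at 9.04 and 6.72 CPM in WT and 17.2 and 14.6 CPM in A5-KO (log2 fold change 0.94, limma adjusted *p* = 0.016). *ANPEP*, a brush border aminopeptidase, was at 11.2 and 10.1 CPM against 19.3 and 19.6 CPM (log2 fold change 0.82, adjusted *p* = 0.0095). *DPP4*, the peptidase that inactivates incretins, was at 76.8 and 73.3 CPM against 121 and 112 CPM (log2 fold change 0.62, adjusted *p* = 0.0034). In each case both A5-KO libraries lay above both WT libraries. The adjusted *p* of *GUCY2C* was 0.085 without WT replicate 2 and 0.058 without A5-KO replicate 1, that of *ANPEP* was 0.058 without WT replicate 2, and the log2 fold change of *DPP4* was 0.57 without A5-KO replicate 1. *CDX2*, the master factor of intestine, was at 149 and 126 CPM in WT and 195 and 192 CPM in A5-KO (log2 fold change 0.49, adjusted *p* = 0.016), and the cadherin *CDH17* at 277 and 270 CPM against 384 and 364 CPM (log2 fold change 0.45, adjusted *p* = 0.0065). Neither reached 1.5-fold.

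The intestinal genes that fell belong to secretory and stem cell programmes. *TFF3*, the trefoil peptide of goblet cells, was at 27.9 and 35.2 CPM in WT and 10.0 and 13.1 CPM in A5-KO (log2 fold change -1.38 ± 0.16, limma adjusted *p* = 0.0018). *OLFM4*, a marker of crypt stem cells, fell from 21.0 and 23 CPM to 14.4 and 11.6 CPM (log2 fold change -0.72, adjusted *p* = 0.024), with an adjusted *p* of 0.15 without WT replicate 2 and 0.054 without A5-KO replicate 2. Of 11 tested genes of stomach epithelium 4 rose and 1 fell, with a median of -0.07. Both A5-KO libraries were above both WT libraries for 4 of the 11 and below them for 5, beside 29.0% and 20.8% of all tested genes. The markers *SOX2* (log2 fold change -0.46) and *CLDN18* (-0.58) were lower in both A5-KO libraries and were not called. The gene that fell was *TFF1*, the trefoil peptide of gastric surface cells, from 45.6 and 52.9 CPM to 24.8 and 34.9 CPM (log2 fold change -0.72, adjusted *p* = 0.034). Its adjusted *p* was 0.16 without WT replicate 2 and 0.066 without A5-KO replicate 1.

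The stomach genes that rose were *AGR2*, *AGR3*, *CTSE* and *ANXA10*. *AGR2*, a protein disulfide isomerase needed for mucin folding, was at 579 and 576 CPM in WT and 985 and 976 CPM in A5-KO (log2 fold change 0.76 ± 0.06, limma adjusted *p* = 0.00016). Its neighbour *AGR3* was at 4.56 and 5.36 CPM against 12.5 and 8.99 CPM (log2 fold change 0.97, adjusted *p* = 0.022). *CTSE*, an aspartic protease of gastric surface cells, was at 21.6 and 20.9 CPM against 40.8 and 32.1 CPM (log2 fold change 0.74, adjusted *p* = 0.016), and *ANXA10* was at 1.46 and 1.02 CPM against 4.14 and 3.37 CPM (log2 fold change 1.09, adjusted *p* = 0.017). For *AGR3* the adjusted *p* was 0.061 without WT replicate 1 and 0.091 without A5-KO replicate 1. For *CTSE* it was 0.057 without WT replicate 2, and without A5-KO replicate 1 the log2 fold change was 0.57. For *ANXA10* it was 0.076 without WT replicate 2 and 0.068 without A5-KO replicate 1.

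Most islet and acinar genes were below the filter, 14 of 25 and 13 of 20, whereas 15 of 17 duct genes were tested. In the list of islet hormones and granule proteins 11 genes were tested, of which *PYY* fell and *TTR* rose. *PYY*, a peptide hormone of the gut and of early endocrine cells, was at 60.3 and 69.3 CPM in WT and 22.3 and 25.2 CPM in A5-KO (log2 fold change -1.41 ± 0.11, limma adjusted *p* = 0.00018). Among 7 tested acinar genes, *GP2*, a zymogen granule protein that is also found on PPs, showed one of the largest decreases of all genes, from 47.3 and 55.7 CPM to 12.1 and 15.3 CPM (log2 fold change -1.84 ± 0.14, adjusted *p* = 0.00014). *SPINK1*, the trypsin inhibitor, rose from 4.48 and 5.30 CPM to 9.46 and 9.14 CPM (log2 fold change 0.81, adjusted *p* = 0.024), a call lost without WT replicate 1 (adjusted *p* = 0.11) and without A5-KO replicate 1 (0.075). Of 15 duct genes only the water channel *AQP1* was called, from 3.85 and 6.17 CPM to 2.07 and 1.67 CPM (log2 fold change -1.04, adjusted *p* = 0.033), with an adjusted *p* of 0.20 without WT replicate 2 and 0.067 without A5-KO replicate 2. *KRT19*, a duct keratin, overlapped between genotypes, and the chloride channel *CFTR* was at 55.3 and 56.5 CPM in WT and 85.9 and 79.3 CPM in A5-KO, with a change of 0.55 on the log2 scale that did not reach 1.5-fold. Of 6 tested endocrine differentiation factors 0 were called by limma, edgeR or DESeq2, and 1 had an unadjusted *p* below 0.05.

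Several mesenchymal matrix genes rose, most of them at low levels. Of 17 tested mesenchyme marker genes 6 rose and 1 fell, with a list median of 0.32. *POSTN*, a matricellular protein, was at 10.1 and 10.6 CPM in WT and 53 and 46.2 CPM in A5-KO (log2 fold change 2.15 ± 0.12, limma adjusted *p* = 3.1e-05). *COL3A1*, a fibrillar collagen of soft tissue, was at 22.0 and 24.1 CPM against 58.8 and 64.5 CPM (log2 fold change 1.38 ± 0.11, adjusted *p* = 0.00014). Both genes kept genotypes far apart relative to their replicates. *COL5A1* rose from 4.71 and 4.77 CPM to 10.1 and 9.90 CPM (log2 fold change 0.94, adjusted *p* = 0.0099). *COL1A1* rose from 7.23 and 8.06 CPM to 13.6 and 15.9 CPM (log2 fold change 0.86, adjusted *p* = 0.014, and 0.050 without WT replicate 1). The proteoglycan *LUM* rose from 2.50 and 1.39 CPM to 5.44 and 5.13 CPM (log2 fold change 1.12, adjusted *p* = 0.021), with an adjusted *p* of 0.098 without WT replicate 2 and 0.056 without A5-KO replicate 1. *ZEB2*, a repressor of epithelial genes, rose from 1.72 and 1.12 CPM to 3.15 and 3.66 CPM (log2 fold change 0.87, adjusted *p* = 0.046). Its adjusted *p* was 0.25 without WT replicate 2, 0.073 without A5-KO replicate 1 and 0.11 without A5-KO replicate 2, and 0.051 in edgeR. *COL5A1* and *ZEB2* were named after their values were seen. The mesenchymal cadherin *CDH11* moved the other way, from 8.76 and 9.85 CPM to 4.02 and 4.57 CPM (log2 fold change -0.96, adjusted *p* = 0.012, and 0.070 without WT replicate 2), and the fibroblast receptor *PDGFRA* did not pass (1.58 and 1.21 CPM against 3.86 and 2.52 CPM, adjusted *p* = 0.079).

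Across the 28 tested collagen chains 4 rose and 4 fell, with a median of 0.05. The largest changes were the increase of *COL28A1*, a beaded collagen, from 5.68 and 4.59 CPM to 31.6 and 25.5 CPM (log2 fold change 2.27 ± 0.16, limma adjusted *p* = 9.6e-05), and the decrease of *COL6A2*, a microfibrillar collagen, from 16.8 and 16.9 CPM to 5.22 and 5.97 CPM (log2 fold change -1.44 ± 0.15, adjusted *p* = 0.00069). *COL25A1*, a transmembrane collagen, fell from 9.13 and 10.2 CPM to 4.6 and 4.54 CPM (log2 fold change -0.93, adjusted *p* = 0.012, and 0.072 without WT replicate 2). Of 29 basement membrane and adhesion genes 2 fell and 1 rose, with a median of -0.07. *ITGA5*, the fibronectin receptor subunit, went from 141 and 142 CPM to 82.6 and 82.4 CPM (log2 fold change -0.77 ± 0.08, adjusted *p* = 0.00061). The laminin chain *LAMB3* of epithelial anchoring sites rose from 1.64 and 1.95 CPM to 4.76 and 6.00 CPM (log2 fold change 1.19, adjusted *p* = 0.0087). *LAMA4*, a laminin chain of vessels and mesenchyme, fell from 41.7 and 40.1 CPM to 25.6 and 27.4 CPM (log2 fold change -0.61, adjusted *p* = 0.013). It lost its call without WT replicate 1 (adjusted *p* = 0.083), without WT replicate 2 (0.072) and without A5-KO replicate 1 (log2 fold change -0.56).

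BMP and TGF-beta signals pattern the foregut, where BMP favours liver over pancreas, and both genotypes were cultured with a BMP receptor inhibitor. Of 37 tested genes of these pathways 6 rose and 3 fell, with a median of 0.08. The ligand *BMP4* was at 5.97 and 3.97 CPM in WT and 17.6 and 14.6 CPM in A5-KO (log2 fold change 1.53 ± 0.19, limma adjusted *p* = 0.0023), and it shares 506 exon bases with an unnamed overlapping gene. Targets of BMP receptors that act as inhibitors of transcription factors or of SMADs rose by less. *ID4* was at 43.9 and 33.9 CPM against 68.2 and 56.9 CPM (log2 fold change 0.68, adjusted *p* = 0.026). The others, named after their values were seen, were *ID2* (log2 fold change 0.67), *ID3* (0.60), *SMAD6* (0.67) and *SMAD7* (0.60), with both A5-KO libraries above both WT libraries for each.

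These 5 calls depended on single libraries. *ID4* lost its call without WT replicate 2 (limma adjusted *p* = 0.17) and without A5-KO replicate 1 (0.070). *ID2* lost it without WT replicate 2 (adjusted *p* = 0.091) and without A5-KO replicate 1 (log2 fold change 0.51), and *ID3* fell under 1.5-fold without either of these libraries (log2 fold changes 0.51 and 0.56) and in edgeR and DESeq2 (both 0.57). *SMAD6* lost it without WT replicate 1 (adjusted *p* = 0.057) and without WT replicate 2 (0.063), and *SMAD7* without each library in turn (adjusted *p* between 0.052 and 0.21). *BMP4* kept its call in all 15 alternatives. The genes that fell included the BMP antagonist *CHRDL1*, from 52.0 and 48.2 CPM to 32.0 and 27 CPM (log2 fold change -0.75, adjusted *p* = 0.0069) and the ligand *TGFB1*, named after its values were seen, from 55.3 and 55.4 CPM to 30.5 and 35.7 CPM (log2 fold change -0.73, adjusted *p* = 0.0058). *TGFB1* shares 215 exon bases with *HNRNPUL1*.

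Other signalling pathways had 2 or fewer called genes. Of 33 FGF, EGF and ERK genes only the ligand *FGF18* was called, from 196 and 182 CPM to 114 and 132 CPM (log2 fold change -0.62, limma adjusted *p* = 0.0054). It fell under 1.5-fold without WT replicate 1 (log2 fold change -0.56) and without A5-KO replicate 1 (-0.51). In the hedgehog list of 11 genes the effector *GLI3* fell from 7.89 and 7.84 CPM to 2.84 and 3.19 CPM (log2 fold change -1.14 ± 0.16, adjusted *p* = 0.0052). The coreceptor *GAS1* rose from 3.88 and 3.25 CPM to 7.36 and 6.71 CPM (log2 fold change 0.82, adjusted *p* = 0.030, with 0.17 without WT replicate 2 and 0.10 without A5-KO replicate 1). In the IGF and imprinted list of 29 genes the insulin receptor adaptor *IRS2* fell from 69.6 and 58.9 CPM to 36.2 and 34.1 CPM (log2 fold change -0.85, adjusted *p* = 0.0025), and the imprinted *RTL1* fell from 40.9 and 43.7 CPM to 25.0 and 24.3 CPM (log2 fold change -0.75, adjusted *p* = 0.0042). *RTL1* shares 1312 exon bases with *MIR493HG*. Of 25 Hippo targets only *ANKRD1* was called (27.1 and 22.6 CPM against 41.2 and 34.7 CPM, log2 fold change 0.59, adjusted *p* = 0.038), a call that was absent in edgeR and DESeq2 (both 0.58) and without WT replicate 2 (0.47) or A5-KO replicate 1 (0.47).

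Of 23 Notch genes, 28 Wnt genes and 15 retinoic acid genes, limma called 0, with 6, 8 and 5 genes at an unadjusted *p* below 0.05. edgeR called 0, 1 and 0 of them and DESeq2 called 1, 1 and 0. Of 40 cell cycle genes only *CDKN2B*, the inhibitor of CDK4 and CDK6 that TGF-beta induces, was called, from 137 and 120 CPM to 66.8 and 60.0 CPM (log2 fold change -1.01 ± 0.10, limma adjusted *p* = 0.00049). The other members spread around 0 and the list median was 0.10. Of 28 genes of the p53 and apoptosis list 0 were called by limma, edgeR or DESeq2, and 7 had an unadjusted *p* below 0.05. Of 22 immediate early genes the nuclear receptor *NR4A1* was called (19.8 and 16.8 CPM against 10.0 and 10.8 CPM, log2 fold change -0.75, adjusted *p* = 0.019, and 0.13 without WT replicate 1). In that list both A5-KO libraries were below both WT libraries for 11 of 22 genes and above them for 0, beside 20.8% and 29.0% of all tested genes. Among 9 tested pluripotency genes only *LIN28A*, an RNA-binding protein that blocks let-7 processing, was called. It rose from 119 and 115 CPM to 246 and 230 CPM (log2 fold change 1.01 ± 0.08, adjusted *p* = 0.00012). The list median was 0.09, with both A5-KO libraries above both WT libraries for 4 genes and below them for 2. The pluripotency markers *POU5F1* and *NANOG* were below the filter, at 0.115 CPM or less in every library.

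Some genes of amino acid supply rose. In the list of the unfolded protein and amino acid response 4 of 36 tested genes rose and 0 fell, with a list median of -0.05. edgeR and DESeq2 each called 5 genes of the list higher. The other members were not called by limma. Among them *CHAC1* had a log2 fold change of 1.07. *DDIT3* (0.02), *ATF4* (-0.09), *PPP1R15A* (-0.37), *ATF3* (-0.43) and *GDF15* (-0.43) were near 0 or below it. These uncalled genes were named after their values were seen. *SLC7A11*, the cystine importer, was at 9.90 and 9.23 CPM in WT and 24.9 and 20.3 CPM in A5-KO (log2 fold change 1.15 ± 0.14, limma adjusted *p* = 0.0023), and it shares 865 exon bases with *SLC7A11-AS1*. *PSAT1*, an enzyme of serine synthesis, was at 105 and 98.1 CPM against 187 and 175 CPM (log2 fold change 0.83 ± 0.08, adjusted *p* = 0.00049). *SLC7A5*, a subunit of the leucine transporter, was at 64.6 and 64.3 CPM against 106 and 108 CPM (log2 fold change 0.72 ± 0.08, adjusted *p* = 0.0012). *TRIB3*, a pseudokinase, was at 6.75 and 6.29 CPM against 11.7 and 10.6 CPM (log2 fold change 0.69, adjusted *p* = 0.036), a call lost without WT replicate 1 (adjusted *p* = 0.089), without WT replicate 2 (0.19) and without A5-KO replicate 1 (0.13).

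Of 218 tested solute carriers 7 rose and 3 fell, beside 1.57% and 1.13% of all tested genes, with a median of 0.08. The largest increase was that of *SLC13A3*, a carrier of dicarboxylates, from 5.43 and 4.12 CPM to 22.0 and 19.2 CPM (log2 fold change 1.91 ± 0.17, limma adjusted *p* = 0.00028). The largest decreases were those of the amino acid carrier *SLC6A14* (7.43 and 5.89 CPM against 3.46 and 2.58 CPM, log2 fold change -0.93, adjusted *p* = 0.029) and the choline carrier *SLC5A7* (7.98 and 9.11 CPM against 5.04 and 4.39 CPM, log2 fold change -0.74, adjusted *p* = 0.038). *SLC6A14* lost its call without WT replicate 1 (adjusted *p* = 0.13) and without A5-KO replicate 2 (0.072), and *SLC5A7* without each library in turn (adjusted *p* between 0.057 and 0.24).

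The list of glycolysis and hypoxia response genes were mostly lower in A5-KO, which is given as a description. Of 38 tested genes both A5-KO libraries were below both WT libraries for 26 and above them for 4, beside 20.8% and 29.0% of all genes, and the list median was -0.18. The genes that passed the limits were *EGLN3*, a prolyl hydroxylase induced by low oxygen, and *CA9*, a carbonic anhydrase. *EGLN3* was at 28.4 and 27.9 CPM in WT and 16.1 and 13.1 CPM in A5-KO (log2 fold change -0.91 ± 0.13, limma adjusted *p* = 0.0055). *CA9* was at 23 and 25.7 CPM against 13.6 and 14.9 CPM (log2 fold change -0.73, adjusted *p* = 0.014, and 0.12 without WT replicate 2), and it shares 571 exon bases with *ARHGEF39*. Of 39 genes of lipid uptake, transport and storage 2 fell and 1, *APOB*, rose. *NR0B2* (SHP), a nuclear receptor induced by bile acids, fell from 38.3 and 30.2 CPM to 17.3 and 17.3 CPM (log2 fold change -0.94 ± 0.13, adjusted *p* = 0.0052). *ANGPTL4*, an inhibitor of lipoprotein lipase, fell from 8.90 and 7.65 CPM to 4.30 and 3.28 CPM (log2 fold change -0.96, adjusted *p* = 0.018, and 0.076 without WT replicate 1). Of 35 genes of sterol and fatty acid synthesis 0 were called by limma, edgeR or DESeq2, and 11 had an unadjusted *p* below 0.05.

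Several genes were close to absent in A5-KO and clearly expressed in WT. *TNFSF9*, which encodes the ligand of the costimulatory receptor 4-1BB (chr19:6531026-6535924, plus strand), was at 42.5 and 70.4 CPM in WT and 0.155 and 0.029 CPM in A5-KO, the largest decrease of all tested genes on the log2(CPM + 1) scale (log2 fold change -5.68 ± 0.23, limma adjusted *p* = 4.3e-06). *CD70*, a ligand of the same family that lies 47258 bases away on the opposite strand, was at 7.52 and 12.2 CPM against 0.22 and 0.26 CPM (log2 fold change -3.10 ± 0.23, adjusted *p* = 0.00012). *MYH14*, a nonmuscle myosin heavy chain on the same chromosome, had 730 reads over the WT libraries and 1 read over the A5-KO libraries. The ratio of mean CPM was 749 for *MYH14* and 615 for *TNFSF9*. Pooled reads scaled by depth gave a ratio of 723 for *MYH14* (95% interval for counting error alone, 129 to 28611), an interval that includes 615. The limma adjusted *p* of *MYH14* was 4.8e-05. Its exons share 457 bases with an overlapping unnamed gene. *SRRM3*, a splicing factor of neural microexons, was at 16.1 and 22.6 CPM against 0.22 and 0.21 CPM (log2 fold change -4.05 ± 0.20, adjusted *p* = 1.3e-05). *PCDHGB5* of the gamma protocadherin cluster was at 10.7 and 15.8 CPM against 0.28 and 0.12 CPM (log2 fold change -3.55, adjusted *p* = 3.7e-05). The gene shares 2177 exon bases with *PCDHGA2*, so that the counting could have split reads between members of the cluster. *CD70* was named after its values were seen.

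Some zinc finger genes were also at or near 0 in A5-KO, although the family as a whole was called at shares near those of all genes. Of 399 tested genes with a ZNF name 6 fell and 3 rose, beside 1.13% and 1.57% of all genes, with a median of 0.03, and 4 of the 6 that fell are among the 179 on chromosome 19. *ZNF248* had 395 reads over the WT libraries and 0 over the A5-KO libraries, at least 130-fold lower (floor of 3 reads over the group, limma adjusted *p* = 6.7e-05). *ZNF793* was at 5.25 and 4.86 CPM in WT and 0.12 and 0.09 CPM in A5-KO (log2 fold change -2.45, adjusted *p* = 0.00014). *ZNF71* was at 13.1 and 13.8 CPM against 2.1 and 1.82 CPM (log2 fold change -2.29, adjusted *p* = 9.6e-05). *ZNF605*, named after its values were seen, kept 5.35 and 3.90 CPM in A5-KO against 11.4 and 10.2 CPM in WT (log2 fold change -1.08, adjusted *p* = 0.010). Also named after their values were seen were *ZNF470*, next to *ZNF71* (log2 fold change -2.1), *ZNF823* (167 reads against 0, at least 55.2-fold lower) and *ZSCAN5A* (5.83 and 8.24 CPM against 0.28 and 0.38 CPM, log2 fold change -2.58). The increases were smaller, *ZNF114* from 19.3 and 14.3 CPM to 40.0 and 30.5 CPM (log2 fold change 1.03, adjusted *p* = 0.011) and *ZNF283* from 7.18 and 4.28 CPM to 12.8 and 10.3 CPM (log2 fold change 0.93, adjusted *p* = 0.047, with 0.24 without WT replicate 2 and 0.14 without A5-KO replicate 1). On chromosome 19 as a whole 25 of 936 tested genes fell and 8 rose, beside 1.13% and 1.57% of all genes. The chromosome 19 genes among the 10 largest decreases of genes averaging 10 CPM or more in the higher genotype were *TNFSF9*, *MYH14* and *ZNF71*. The windows around their starts are at chr19:6530776-6531075 (*TNFSF9*), chr19:50203372-50203671 (*MYH14*) and chr19:56595052-56595351 (*ZNF71*). All are on the plus strand of GRCh38.p14, with CG dinucleotides again in capitals.
*TNFSF9*: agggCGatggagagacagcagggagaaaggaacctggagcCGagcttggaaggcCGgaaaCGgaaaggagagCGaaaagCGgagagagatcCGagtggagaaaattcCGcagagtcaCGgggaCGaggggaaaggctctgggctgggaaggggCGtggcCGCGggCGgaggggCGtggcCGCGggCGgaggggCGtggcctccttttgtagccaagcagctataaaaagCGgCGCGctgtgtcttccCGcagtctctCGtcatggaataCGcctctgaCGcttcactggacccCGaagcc
*MYH14*: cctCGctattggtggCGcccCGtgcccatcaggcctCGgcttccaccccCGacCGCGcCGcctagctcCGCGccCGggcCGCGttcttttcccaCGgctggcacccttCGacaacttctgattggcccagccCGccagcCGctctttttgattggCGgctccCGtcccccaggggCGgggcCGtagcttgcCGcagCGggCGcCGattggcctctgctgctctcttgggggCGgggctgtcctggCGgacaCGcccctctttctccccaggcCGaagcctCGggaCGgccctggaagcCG
*ZNF71*: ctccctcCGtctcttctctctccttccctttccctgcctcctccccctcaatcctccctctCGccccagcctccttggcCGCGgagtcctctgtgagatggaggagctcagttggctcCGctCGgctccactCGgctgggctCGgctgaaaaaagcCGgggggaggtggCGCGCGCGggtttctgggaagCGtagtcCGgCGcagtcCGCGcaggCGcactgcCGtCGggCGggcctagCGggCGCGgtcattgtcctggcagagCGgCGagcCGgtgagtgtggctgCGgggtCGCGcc

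These windows held 27, 32 and 31 CG dinucleotides, beside a median of 14 over all 35116 windows of the RefSeq table. The median was 26 for genes that fell, 17 for genes that rose and 26 for all tested genes with a window, so that high CG content was not particular to the genes that fell. No measurement of DNA methylation was used here.

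**Figure D3:**
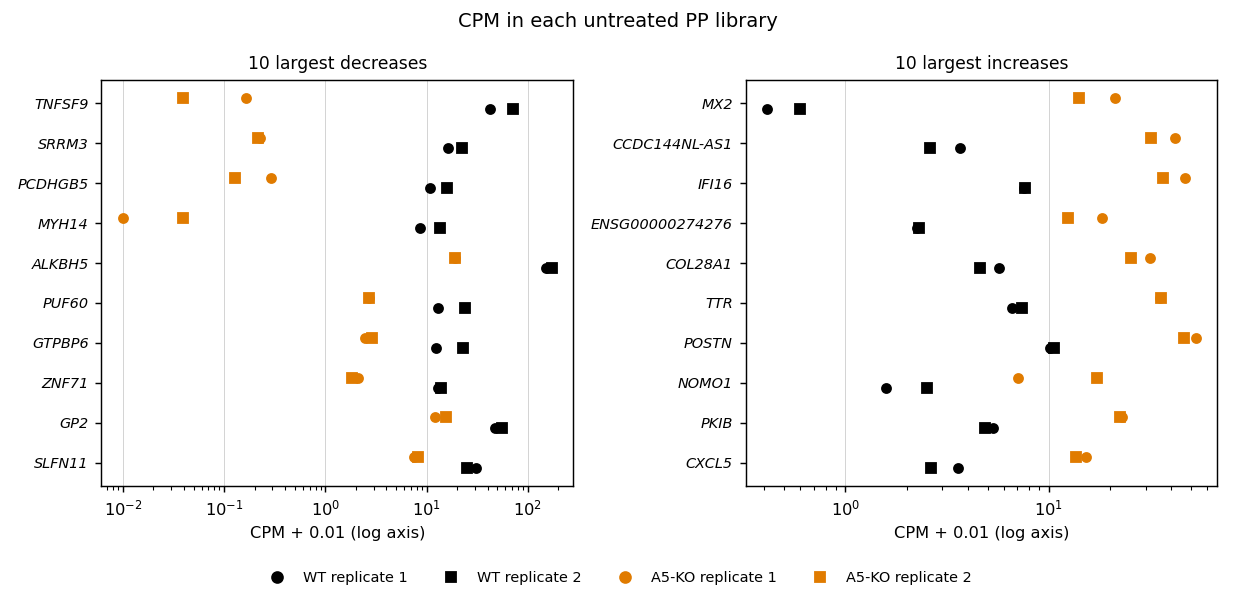
The 10 genes with the largest decreases (left) and increases (right) among called genes averaging 10 CPM or more in the higher genotype, as CPM + 0.01 in each untreated PP library (x axes, log scale), with WT in black and A5-KO in orange, circles for replicate 1 and squares for replicate 2. The genotypes are separated for every gene drawn, with *TNFSF9*, *SRRM3*, *PCDHGB5* and *MYH14* at 0.28 CPM or less in both A5-KO libraries and *MX2* at 0.59 CPM or less in both WT libraries.

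Called genes of interferon and cytokine responses moved in both directions, while separated genes were more often lower. Of 22 tested interferon-stimulated genes 3 fell and 1 rose, with a median of -0.05. Both A5-KO libraries were below both WT libraries for 11 of the 22 and above them for 2, beside 20.8% and 29.0% of all tested genes. *MX2*, an interferon-induced GTPase of antiviral defence (chr21:41361999-41409393, plus strand), had the largest increase of all tested genes on the log2(CPM + 1) scale, from 0.40 and 0.59 CPM to 21.0 and 14.0 CPM (log2 fold change 3.61 ± 0.21, limma adjusted *p* = 3.1e-05). *IFITM1*, which blocks the entry of viruses, went the other way, from 6.11 and 7.44 CPM to 1.21 and 1.93 CPM (log2 fold change -1.61, adjusted *p* = 0.0024). Its neighbour *IFITM2* fell from 19.5 and 23.1 CPM to 12.1 and 13.8 CPM (log2 fold change -0.67, adjusted *p* = 0.031, with 0.24 without WT replicate 2 and 0.086 without A5-KO replicate 1). *CXCL10* fell from 1.32 and 3.38 CPM to 0.31 and 0.21 CPM (log2 fold change -1.34, adjusted *p* = 0.034, with 0.15 without WT replicate 2 and 0.056 without A5-KO replicate 2). *IFI16*, a DNA sensor outside this list that is among the largest increases of all genes, was at 7.58 and 7.59 CPM against 46.5 and 36.6 CPM (log2 fold change 2.30 ± 0.14, adjusted *p* = 4.2e-05), and it shares 425 exon bases with *PYDC5*.

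Of 19 chemokine and NF-kB response genes 3 fell and 1 rose, with a median of -0.03. Both A5-KO libraries were below both WT libraries for 8 of the 19 and above them for 1, beside 20.8% and 29.0% of all tested genes. Besides *TNFSF9*, the adhesion receptor *ICAM1* fell from 5.68 and 7.87 CPM to 2.94 and 3.22 CPM (log2 fold change -0.92, limma adjusted *p* = 0.030) and *TNFAIP2* from 92.7 and 91.2 CPM to 58.4 and 61.5 CPM (log2 fold change -0.61, adjusted *p* = 0.0042). *ICAM1* had an adjusted *p* of 0.20 without WT replicate 2 and 0.077 without A5-KO replicate 1, and *TNFAIP2* a log2 fold change of -0.57 without A5-KO replicate 1. The neutrophil chemokine *CXCL5* rose from 3.56 and 2.63 CPM to 15.2 and 13.6 CPM (log2 fold change 1.92 ± 0.17, adjusted *p* = 0.00038). *SLFN11*, an inhibitor of stalled replication forks that interferon can induce, was among the largest decreases, from 30.9 and 25.1 CPM to 7.48 and 8.14 CPM (log2 fold change -1.71 ± 0.15, adjusted *p* = 0.00025).

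The remaining genes among the 10 largest changes in each direction were of mixed kinds. The antisense RNA *CCDC144NL-AS1* was at 3.65 and 2.60 CPM in WT and 41.9 and 31.7 CPM in A5-KO (log2 fold change 3.19 ± 0.18, limma adjusted *p* = 3.1e-05), and it shares 463 exon bases with the pseudogene *RNASEH1P1*. *PKIB*, an inhibitor of protein kinase A, was at 5.31 and 4.83 CPM against 23 and 22.4 CPM (log2 fold change 1.97 ± 0.14, adjusted *p* = 9.6e-05). The other members were less steady. *PUF60* (12.9 and 23.9 CPM against 2.66 and 2.67 CPM, log2 fold change -2.35) and *GTPBP6* (12.5 and 22.8 CPM against 2.47 and 2.87 CPM, -2.29) fell, and *NOMO1* (1.58 and 2.51 CPM against 7.08 and 17.3 CPM, 2.01) and ENSG00000274276 (2.24 and 2.29 CPM against 18.2 and 12.4 CPM, 2.30) rose. In the libraries with Act D the genotypes overlapped for all of these 4 genes, *GTPBP6* for instance ranging from 1.6 to 18.4 CPM in WT and from 1.28 to 22.6 CPM in A5-KO. *NOMO1* has near-identical copies, and how reads were shared among them is not given in the sources used here. The GENCODE annotation gives ENSG00000274276 the gene type artifact.

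Of 919 tested long noncoding RNAs 11 rose and 3 fell, beside 1.57% and 1.13% of all tested genes, with a median of 0.06. Besides *CCDC144NL-AS1*, *LINC02582* had the largest increase, from 0.60 and 0.37 CPM to 7.66 and 6.56 CPM (log2 fold change 2.45, limma adjusted *p* = 0.00015). *LINC00540*, named after its values were seen, rose from 0.55 and 0.22 CPM to 5.32 and 3.13 CPM (log2 fold change 1.90, adjusted *p* = 0.0028). *C2orf27A* had 192 reads over the WT libraries and 0 over the A5-KO libraries, at least 63.4-fold lower (floor of 3 reads over the group, adjusted *p* = 0.00066). Among 17 clustered protocadherins 2 rose besides the decrease of *PCDHGB5*, *PCDHB13* from 0.66 and 0.65 CPM to 2.1 and 1.99 CPM (log2 fold change 0.88, adjusted *p* = 0.036) and *PCDHB16* from 1.55 and 1.30 CPM to 3.52 and 2.99 CPM (log2 fold change 0.81, adjusted *p* = 0.047). Both lost their calls without each library in turn, with adjusted *p* between 0.064 and 0.12 for *PCDHB13* and between 0.056 and 0.22 for *PCDHB16*. Large housekeeping families held 0 calls, but their uncalled members were not evenly placed. Both A5-KO libraries were above both WT libraries for 37 of 73 mitochondrial ribosomal protein genes and below them for 6. These counts were 20 and 1 for 43 proteasome genes and 6 and 18 for 80 cytosolic ribosomal protein genes. The shares of all tested genes were 29.0% and 20.8%. None of 80 cytosolic ribosomal protein genes, 73 mitochondrial ribosomal protein genes and 43 proteasome genes were called by limma, edgeR or DESeq2. An unadjusted *p* below 0.05 was found for 9, 14 and 7 of them, beside 2684 of all 13911 tested genes.

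Called genes were next to each other on the chromosome in several places. Of 13863 pairs of neighbouring tested genes, both genes were called in 30, in the same direction in 26 of these and in opposite directions in 4. Over all tested genes 2.7% were called, and the number of pairs that independent calls would give was not computed. Neighbours were not always close, with 4888088 bases between *LINC01036* and *RGS1*. Pairs that have been described above are *TNFSF9* and *CD70*, *ALB* and *AFP*, *FGB*, *FGA* and *FGG*, *GSTA2* and *GSTA1*, *AGR2* and *AGR3*, *IFITM1* and *IFITM2*, and *ZNF470* and *ZNF71*. The pairs were looked for after the calls had been seen. Some neighbours share exon bases, so that their counts are not independent.

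To see whether these differences held in other libraries of both genotypes, the called genes were looked up in the 6 WT and 6 A5-KO PP libraries treated with Act D for 1 to 3 h, in which CPM is relative to an RNA pool that is decaying. No test was run there. Of the 157 genes that fell at 0 h, 61 were lower in all A5-KO libraries than in all WT libraries (38.9%, beside 3.03% of all tested genes) and 0 were higher in all. Of the 218 genes that rose, 110 were higher in all (50.5%, beside 2.52%) and 0 were lower in all. The remaining genes overlapped. The study's methods state, for cell culture in general, that the wells of a replicate were divided from one batch of cells, so treated libraries are not independent of the untreated ones. *AFP* ranged from 628 to 1032 CPM in treated WT and from 1311 to 1596 CPM in treated A5-KO libraries, *POSTN* from 12.8 to 31.4 CPM and from 46.7 to 70.0 CPM, and *TNFSF9* from 1.58 to 41.9 CPM and from 0 to 0.23 CPM. By contrast, *FOXA1* (3.02 to 10.9 CPM against 2.50 to 14.8 CPM) and *BMP4* (2.34 to 5.31 CPM against 1.87 to 7.48 CPM) overlapped.

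The hILOs are a later stage of the differentiation of MEL1 cells of both genotypes, deposited as TPM (reads scaled for transcript length and library size), with 2 libraries per genotype. Leaving out *ALKBH5*, 118 of 156 genes that fell in PPs had a mean of at least 1 TPM. Both A5-KO hILO libraries were below both WT libraries for 67 of them (56.8%, beside 37.1% of all 17300 genes measured) and above for 23 (19.5%, beside 24.3%), with a median of -0.25 beside -0.06 for all genes. Of 218 genes that rose in PPs 191 were measured, of which 119 were above (62.3%, beside 24.3%) and 40 were below, with a median of 0.29. *TTR* was at 7527 and 7550 TPM in WT hILOs, whereas A5-KO hILOs held 18674 and 18749 TPM, *ALB* was at 934 and 929 TPM against 1913 and 1846 TPM, and *AFP* at 5535 and 5732 TPM against 6446 and 6255 TPM. The fibrinogen genes had the opposite order there, *FGB* with 1362 and 1394 TPM in WT against 737 and 748 TPM in A5-KO. *TNFSF9* was at 53.2 and 55.9 TPM against 0 and 0.058 TPM in A5-KO, and *MYH14* was listed at 0 in both A5-KO libraries and at 2.81 and 2.71 TPM in WT, whereas *SRRM3* overlapped between genotypes (1.94 and 2.2 TPM against 1.6 and 4.16 TPM).

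**Figure D4:**
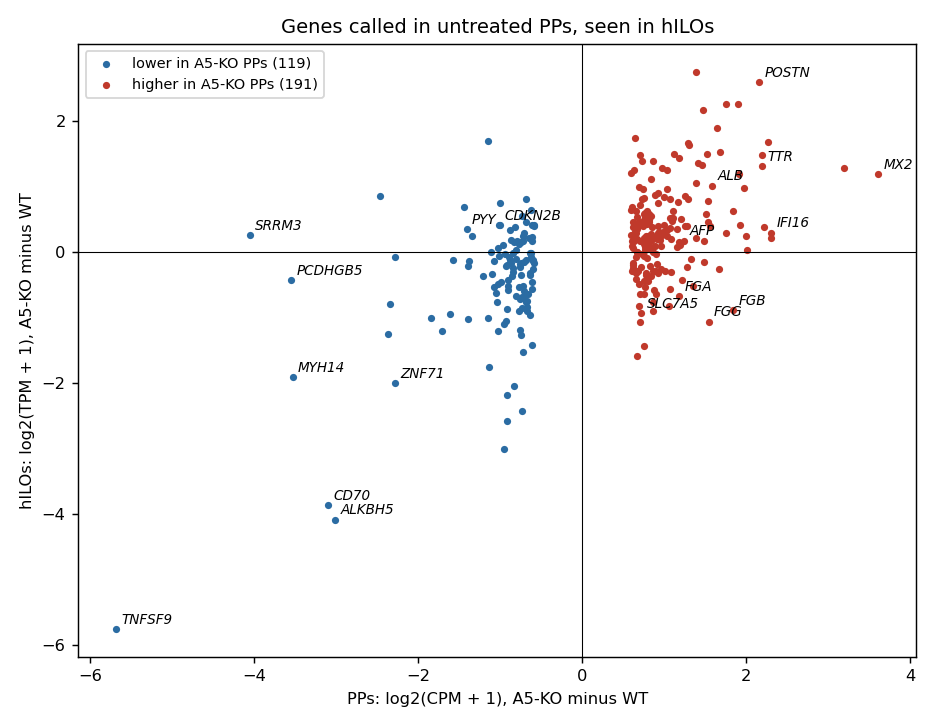
Genes called in untreated PPs and measured in hILOs, with the difference between genotypes in PPs (x axis, log2(CPM + 1), A5-KO minus WT) against that in hILOs (y axis, log2(TPM + 1), A5-KO minus WT). Blue points fell and red points rose in PPs. *TNFSF9* and *CD70* lie low on both axes (-5.76 and -3.86 in hILOs), *POSTN* lies high on both (2.59 in hILOs), and *FGB*, *FGG* and *FGA* rose in PPs and were lower in A5-KO hILOs (-0.89, -1.06 and -0.68).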

How the data were processed

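RNA-seq libraries of MEL1-derived PPs and hILOs were prepared with the NEBNext Ultra kit, which does not mark strand, so reads of overlapping genes on opposite strands cannot be told apart. Per the submitters' processing notes and the study's methods, the authors trimmed reads with fastp, aligned them with HISAT2 2.1.0 to GRCh38, removed ERCC spike-ins and deposited CPM for each PP library. The read counter and the annotation release are not given in the sources used here. The authors deposited hILO values as TPM, normalized apart from the PP files, so that no level was compared across them. All CPM values came out as whole reads within a tolerance of 0.02 reads, and reads were recovered for edgeR and DESeq2.

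WT and A5-KO at 0 h (2 libraries each) were compared with limma 3.58.1 (R 4.3.3, eBayes with trend) on log2(CPM + 1) in genes averaging at least 1 CPM, with Benjamini-Hochberg adjustment over all of them. Calls needed both an adjusted *p* under 0.05 and a difference of more than 1.5-fold. edgeR 4.0.16 (quasi-likelihood) and DESeq2 1.42.0 on recovered reads, other pseudocounts, filters and scalings, a robust fit, all 16 PP libraries in one fit, the replicate number as a block and the omission of each library were the 15 alternatives. Depth between 32273734 and 34835774 reads set the precision, and intervals and floors (3 reads) cover counting error only. The fitting code was tested on simulated data first.

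Named genes were *ALKBH5*, genes the study discusses in PPs, the 10 largest changes in each direction among called genes averaging 10 CPM or more in the higher genotype, up to 4 called genes for each list or family (all where 5 or fewer were called), and cell type markers. The members and lists were chosen with earlier results of these data known. Coordinates are from GENCODE and promoter windows from RefSeq, both on GRCh38. A few genes are not reported here.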

Additional observations from a re-analysis of the deposited data

Results flagged for a closer look

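Several genes called in untreated PPs had both A5-KO hILO libraries on the opposite side of both WT hILO libraries. The difference between PPs and hILOs was not tested, values are log2(CPM + 1) in PPs and log2(TPM + 1) in hILOs (A5-KO minus WT), and over all called genes 23 of 118 measured genes that fell in PPs were higher in A5-KO hILOs (19.5%, beside 24.3% of all genes measured in hILOs) and 40 of 191 that rose were lower (20.9%, beside 37.1%). Opposite orders were thus no more frequent among called genes than these orders are among all genes. The fibrinogen genes were higher in A5-KO PPs and lower in A5-KO hILOs, with 1.84 and -0.89 for *FGB*, 1.54 and -1.06 for *FGG*, and 1.18 and -0.68 for *FGA*. *ITIH2*, another secreted liver protein, had 0.78 and -0.09. The amino acid response genes *SLC7A5* (0.72 and -0.93), *PSAT1* (0.83 and -0.21) and *TRIB3* (0.69 and -0.49) had the same reversal. So did the BMP targets *ID2* (0.67 and -0.29) and *ID4* (0.68 and -0.30), the factor *FOXA1* (1.33 and -0.10), *LIN28A* (1.01 and -0.30) and the stomach gene *ANXA10* (1.09 and -0.31). The hILO values of *ITIH2* and *FOXA1* lay near the median of all genes measured in hILOs, -0.06. Genes that fell in PPs and were higher in A5-KO hILOs were the hormone *PYY* (-1.41 and 0.35), *CXCL10* (-1.34 and 0.24), the cell cycle inhibitor *CDKN2B* (-1.01 and 0.41) and the laminin chain *LAMA4* (-0.61 and 0.42). No single library could be tested for standing apart from its group, since each group held 2.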

How the results depend on the processing

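The 157 lower and 218 higher calls became 95 and 126 with a pseudocount of 5, 93 and 101 with a filter of 10 CPM, and 266 and 365 in a fit that took replicate numbers as a block. That block kept all 375 calls, and the numbers were not taken to pair the libraries, since deviations of same-numbered libraries correlated at 0.171 with only 2 pairs. Leaving out 1 library gave between 112 and 192 lower and between 125 and 248 higher calls. The higher count was 125 without WT replicate 2 and 131 without A5-KO replicate 1, and 166 calls were kept in all 4 such fits. edgeR called 205 lower and 228 higher, DESeq2 called 221 and 243, and these and the other alternatives gave counts within 1.5 times the reported ones. Of 107 called genes followed by name, 60 kept their call in all 15 alternatives and 47 lost it in at least 1, and no sign changed. The cause of these shifts was not tested.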
